A study of Mus musculus with 4 samples.

Results

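The miRNAs described here are the products of 10 hairpin names from the mouse miR-17-92 cluster and its paralogs, the miR-106b-25 and miR-106a-363 clusters. The files name them mmu-mir-17, mmu-mir-18a, mmu-mir-19a, mmu-mir-19b, mmu-mir-20a, mmu-mir-92a, mmu-mir-106b, mmu-mir-93, mmu-mir-25 and mmu-mir-106a, written below as miR-17 and so on. A read belonged to a member when it was 18 nt or longer and its deposited annotation named member hairpins only. Of the 389 hairpin labels with such reads in any library, 9 were members, and miR-106a had no read. With copy numbers dropped from the names, no read carried a label that joined a member with another hairpin name, or members with one another. The members accounted for 49 of 2783 distinct miRNA sequences.

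The libraries hold small RNA of C57BL mice, 2 from the group labelled Mdd and 2 from controls. Each day the Mdd mice met a randomly chosen stressor, among them a tilted or wet cage, noise, strobe light, restraint and isolation. Control mice were left alone apart from feeding and cleaning. The protocol describes RNA from sperm, whereas the tissue and cell type fields name testis and testicular cells, and the material is called sperm here. No source used here says whether a replicate is a separate animal, and p-values reflect no more than how far these samples spread, which may be technical.

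The miR-17-92 transcript is cut into several miRNAs that pair with target mRNAs mainly through the seed, bases 2 to 8 of the mature strand. Seed families run across the clusters: miR-17, miR-20a, miR-93, miR-106a and miR-106b share one seed, miR-92a and miR-25 another, miR-19a and miR-19b the third, and miR-18a has its own. The clusters are best known for promoting cell proliferation and survival, and in the mouse testis for roles in spermatogonia. Because a read spans a whole small RNA, levels were compared between miRNAs without scaling by length.

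The main mature strands show the families, with the seed in capitals. Sequences and positions are from RefSeq, build GRCm38.p6, and all 10 names were matched.

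miR-17-5p: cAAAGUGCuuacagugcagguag
miR-20a-5p: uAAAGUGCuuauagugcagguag
miR-93-5p: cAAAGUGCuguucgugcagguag
miR-106b-5p: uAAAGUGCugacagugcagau
miR-106a-5p: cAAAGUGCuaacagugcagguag
miR-18a-5p: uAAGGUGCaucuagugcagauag
miR-19a-3p: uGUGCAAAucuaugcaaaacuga
miR-19b-3p: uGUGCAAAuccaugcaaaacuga
miR-92a-3p: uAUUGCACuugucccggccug
miR-25-3p: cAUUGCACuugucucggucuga

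With positions counted from 1 at the 5′ end, miR-106a-5p and miR-17-5p were equal at 22 of 23 bases and differed by A10U. miR-19a-3p and miR-19b-3p were equal at 22 of 23 bases and differed by U11C. miR-25-3p and miR-92a-3p were equal at 18 of 21 compared bases, with C1U, U14C and U18C. Each of these differences lies inside the reads, so a full-length read separates the members of a family.

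The miR-17-92 hairpins lie at chr14:115043671-115044506 on the plus strand, where all 6 overlap an exon of the lincRNA Mir17hg. The miR-106b-25 hairpins lie at chr5:138165321-138165818 on the minus strand, inside Mcm7, which encodes a subunit of the replicative helicase. Mir25 and Mir93 overlap an annotated Mcm7 exon and Mir106b does not. The miR-106a-363 hairpins lie at chrX:52741693-52742567 on the minus strand. Those of the members there, Mir92-2, Mir19b-2 and Mir106a, lie inside no gene annotated on that strand, although Mir106a overlaps an exon of Kis2. Host genes and exons are those of GENCODE M21. miR-19b and miR-92a each have a hairpin in both the chromosome 14 and the X cluster.

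Reads of 18 nt or longer numbered 9706895 to 23806805 per library, and miRNA reads among them 71902 to 263748, or 0.395% to 1.57%. Control replicate 2 stood apart from the other 3 libraries in the erythroid and striated muscle markers. Its erythroid markers (miR-451a, miR-144, miR-486a and miR-486b; 4 of 4 with reads) summed to 5718 CPM (miRNA reads scaled to the same total in each library), against 46313 to 59564 in the other libraries. Most of this was miR-451a, at 5608 CPM in control replicate 2, against 45520 to 57508 CPM in the other libraries. Reads labelled for both miR-486a and miR-486b had 72.0 CPM there, against 779 to 2056 CPM. miR-144 had reads in the control libraries only. In control replicate 2 the striated muscle markers (4 of 4 with reads) summed to 65737 CPM, against 989 to 3880. Male germ cell markers (7 of 8 with reads, miR-449c at 0 throughout) summed to 359407 and 268320 CPM in Mdd replicates 1 and 2, against 322202 and 149249 CPM in control replicates 1 and 2. Of the germ cell markers, miR-34b had 205396 and 147898 CPM in the Mdd libraries, against 177672 and 47056 CPM in the control libraries. By contrast, miR-449a was highest in control replicate 2, at 47936 CPM. Leukocyte markers (3 of 3) summed to 357 and 223.4 CPM in Mdd, against 654 and 830 CPM in control. Those of smooth muscle and vessel (3 of 3) ranged from 44776 to 77919 CPM. Epithelium markers (5 of 5) summed to 7354 and 17115 CPM in Mdd replicates 1 and 2, against 8247 and 17293 CPM in control replicates 1 and 2. The part of cell makeup in the results below was not tested, and results that rest on control replicate 2 are given without it as well. In bulk samples, fewer cells of a type and less RNA per cell cannot be told apart.

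miR-92a, miR-93 and miR-25 held nearly all reads of the group in every library, and the other members were scarce. Together these 3 took 96.7% and 98.5% of member reads in Mdd replicates 1 and 2, against 98.4% and 92.5% in control replicates 1 and 2. They also stood high among all miRNAs. miR-92a ranked 8 and 5 in the Mdd libraries, against 8 and 16 in the control libraries, while miR-93 ranked 20 and 8, against 23 and 26.

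miR-92a, which is known to restrain vessel growth and integrin expression in mouse endothelium, was the most read member in all 4 libraries. It had 6029 and 4331 reads in Mdd replicates 1 and 2, against 2374 and 3897 reads in control replicates 1 and 2. As levels these were 30305 and 46069 CPM in Mdd sperm, against 33017 and 14776 CPM in control sperm. Mdd replicate 2 was highest and control replicate 2 lowest, and the groups overlapped. The means were 38187 ± 11147 CPM in Mdd and 23896 ± 12899 CPM in control (SD, n = 2 each). The fitted log2 fold change, Mdd over control, was 0.75 ± 0.76 (SE), with an adjusted p of 0.992 in edgeR's quasi-likelihood test over 236 labels. Without control replicate 2 the log2 fold change was 0.33.

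miR-93, which represses the cell cycle inhibitor Cdkn1a and other targets of the miR-17 seed, was the second most read member. It had 11008 and 24539.7 CPM in Mdd replicates 1 and 2, against 10723 and 10729.9 CPM in control replicates 1 and 2. Both Mdd values lay above both control values, but Mdd replicate 1 did so by a small margin and Mdd replicate 2 carried the difference. Its log2 fold change was 0.75 ± 0.69 (SE), with an adjusted p of 0.992 in edgeR. Without Mdd replicate 2 it was 0.24.

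miR-25, which shares its seed with miR-92a and represses the pro-apoptotic gene Bcl2l11, was the third most read. It had 1558 and 4074 CPM in Mdd replicates 1 and 2, against 3866 and 2138 CPM in control replicates 1 and 2. The control values lay between the Mdd values, so the spread within the Mdd group exceeded the difference between groups. Its log2 fold change was -0.04 ± 0.73 (SE), with an adjusted p of 0.992 in edgeR.

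Among the scarce members, miR-18a, miR-19b and miR-20a passed the filter on low counts. miR-18a, which represses the glucocorticoid receptor gene Nr3c1 in rat neurons, had 382 and 404 CPM in Mdd replicates 1 and 2, against 389 and 709 CPM in control replicates 1 and 2. Control replicate 2 alone stood above the rest. miR-19b had 397 and 564 CPM in the Mdd libraries, against 348 and 683 CPM in the control libraries, and the groups overlapped. The log2 fold changes were -0.48 ± 1.33 for miR-18a and -0.11 ± 1.30 for miR-19b (SE), both with an adjusted p of 0.992 in edgeR. Without control replicate 2 both signs turned, to 0.15 for miR-18a and 0.59 for miR-19b.

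miR-20a, which in human cells forms a feedback loop with the E2F transcription factors, varied most within both groups among the tested members. It had 130 and 3 reads in Mdd replicates 1 and 2, against 0 and 193 reads in control replicates 1 and 2. One library of each group was high and the other was near or at 0. Its log2 fold change was -0.12 ± 2.10 (SE), with an adjusted p of 0.992 in edgeR, and it was -3.68 without Mdd replicate 1 and 8.46 without control replicate 2.

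The remaining members had few reads or none. miR-17, the founding member of the largest seed family, had 1 and 0 reads in the Mdd libraries, against 1 and 26 reads in the control libraries. miR-106b had 1 and 10 reads in the Mdd libraries, against 1 and 5 reads in the control libraries. miR-19a had 1 read, in Mdd replicate 2. For miR-106a, a count of 0 allows a level of up to 15.1 and 31.9 CPM in Mdd replicates 1 and 2, against 41.7 and 11.4 CPM in control replicates 1 and 2. Above the minimum of the copy number distribution, genome-matched sequences most often had 38 and 8 copies in the Mdd libraries, against 7 and 10 in control. Reads were therefore not taken as independent molecules, and whether they are copies was not tested. Multiplied by this usual copy number, the limits for miR-106a become 573 and 255 CPM in the Mdd libraries, against 292 and 114 CPM in the control libraries.

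**Figure D1:**
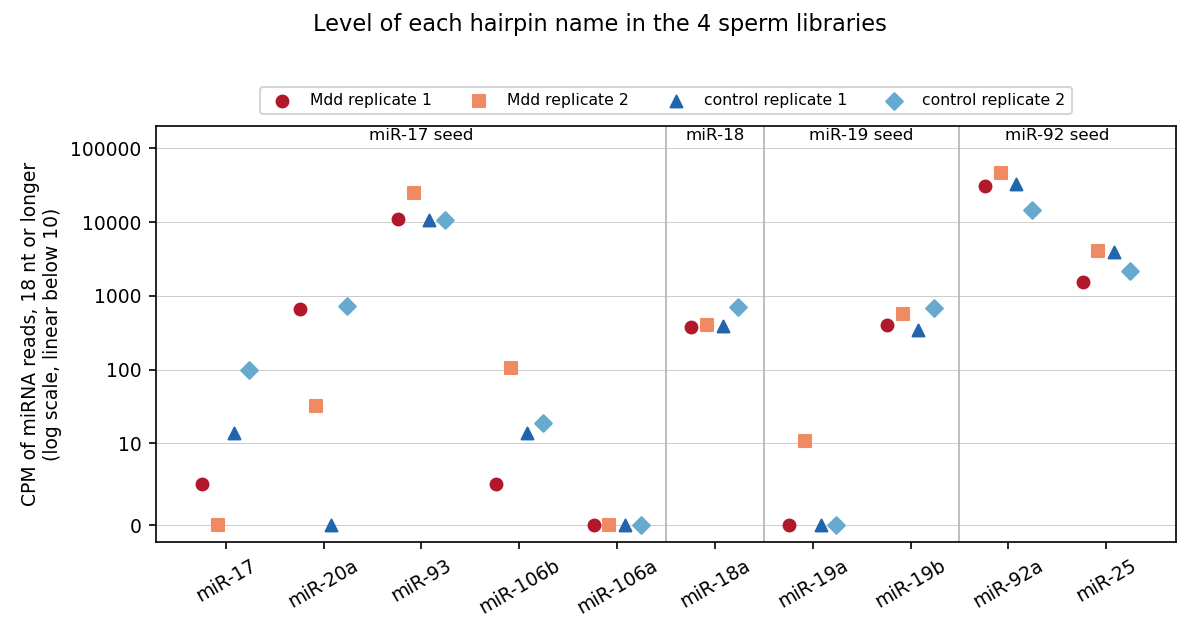
Level of each of the 10 hairpin names in CPM of miRNA reads of 18 nt or longer (vertical axis, log scale, linear below 10), grouped along the horizontal axis by seed family, with 1 point per library and no error bars. miR-92a and miR-93 lie above every other member in all 4 libraries, miR-20a is high in Mdd replicate 1 and control replicate 2 only, and miR-106a is at 0.

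No member differed between Mdd and control sperm past the threshold of 0.05. Of the 6 members tested, 0 were called, and over all 236 labels the share called was 0.0%. At an unadjusted p under 0.05, 0 of 6 members passed, beside 11 of 236 labels (4.66%). DESeq2 called 5 of 389 labels (1.29%), all lower in Mdd, and none was a member. The median log2 fold change was -0.08 over the 6 tested members, of which 2 were positive, and -0.04 over all labels tested, of which 113 (47.9%) were positive. The groups did not overlap in 1 of the 6 tested members, miR-93, and in 38.1% of all labels tested. With standard errors of 0.69 to 2.10 on the log2 scale, moderate changes were not detectable at this depth and number of libraries.

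The direction for miR-92a and miR-93 depended on the total used for scaling. With all reads of 18 nt or longer as the library size, the log2 fold change was -0.13 for miR-92a and -0.39 for miR-93. The median over all labels moved to -1.10 under that scaling, so both stayed above the median label.

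**Figure D2:**
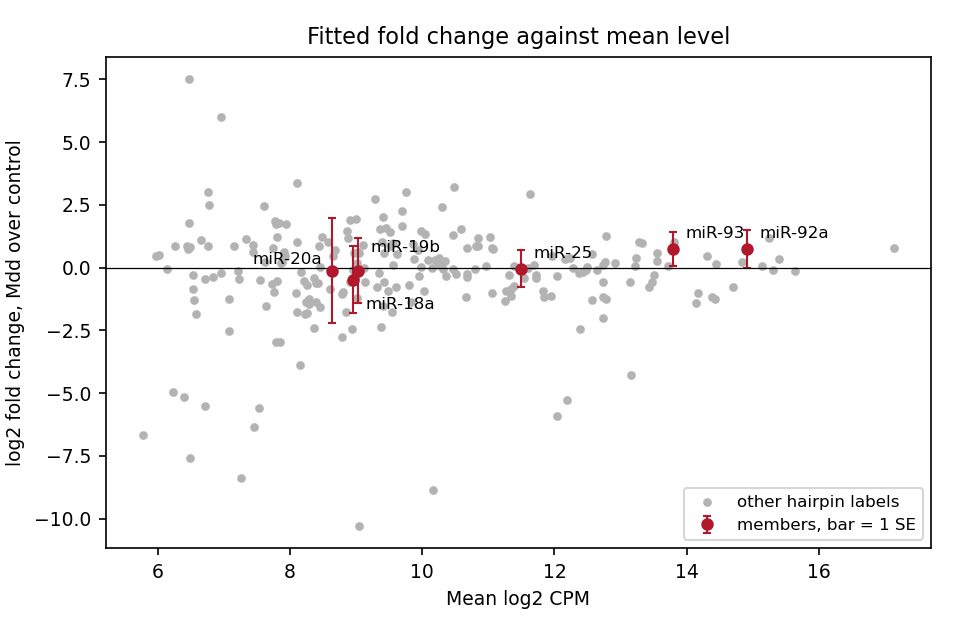
Log2 fold change of Mdd over control (vertical axis) against mean log2 CPM (horizontal axis) for the 236 tested hairpin labels, with the 6 tested members in red and bars of 1 SE. The members lie within the cloud of other labels, with miR-92a and miR-93 both at 0.75 and the bars reaching zero or close to it.

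The group as a whole showed the same dependence. Member reads numbered 8816 and 7126 in Mdd replicates 1 and 2, against 3478 and 7882 in control replicates 1 and 2. They made up 4.43% and 7.58% of miRNA reads in the Mdd libraries, against 4.84% and 2.99% in the control libraries. The means were 6.01% ± 2.23 in Mdd and 3.91% ± 1.31 in control (SD, n = 2 each; exact two-sided permutation test, p = 0.667, where the smallest p that 2 against 2 libraries allow is 0.33). The groups overlapped, since Mdd replicate 1 lay below control replicate 1. The difference of 2.09 percentage points was 0.519 without Mdd replicate 2 and 1.17 without control replicate 2. As a share of all reads of 18 nt or longer the order turned, with 0.0371% and 0.0299% in the Mdd libraries, against 0.0358% and 0.0470% in the control libraries. Of the miRNA labels outside the group with a mean of at least 1000 CPM, those whose profile over the 4 libraries was most like that of the summed members were miR-132, miR-467a/miR-467b and miR-872. Their root mean square distances were 0.16, 0.24 and 0.27 on the centred log2 CPM scale, over 4 libraries and 96 labels compared.

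The balance inside the group moved from library to library. miR-92a took 68.4% and 60.8% of member reads in Mdd replicates 1 and 2, against 68.3% and 49.4% in control replicates 1 and 2. The means were 64.6% ± 5.38 in Mdd and 58.8% ± 13.3 in control (SD, n = 2 each; exact two-sided permutation test, p = 0.667). Control replicate 2 decided the sign of this difference, which was 5.73 percentage points with it and -3.68 without it.

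The miR-106b-25 cluster took 28.4% and 37.9% of member reads in Mdd replicates 1 and 2, against 30.2% and 43.1% in control replicates 1 and 2. The first replicate of each group was low and the second high, and the groups overlapped. The means were 33.1% ± 6.73 in Mdd and 36.7% ± 9.15 in control (SD, n = 2 each; exact two-sided permutation test, p = 0.667). The difference of -3.53 percentage points became 2.94 without control replicate 2 and 1.23 without Mdd replicate 1. Counting single reads, the Wilson 95% intervals of these shares were ± 1.55 percentage points or narrower, and ± 5.93 or narrower with counts divided by the usual copy number.

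By seed, the miR-92 family led in every library. It took 71.9% and 66.2% of member reads in the Mdd libraries, against 76.3% and 56.6% in the control libraries. The miR-17 family followed with 26.3% and 32.6% in Mdd, against 22.2% and 38.7% in control, most of it miR-93. The miR-18 and miR-19 families each stayed under 1% in 3 libraries and reached 2.37% and 2.28% in control replicate 2. Within miR-17-92 names, miR-92a alone held 95.5% and 97.9% of reads in the Mdd libraries, against 97.8% and 86.9% in the control libraries, although its transcript encodes the other members as well. Part of this miR-92a could come from the X-linked copy, which the read ends address next.

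**Figure D3:**
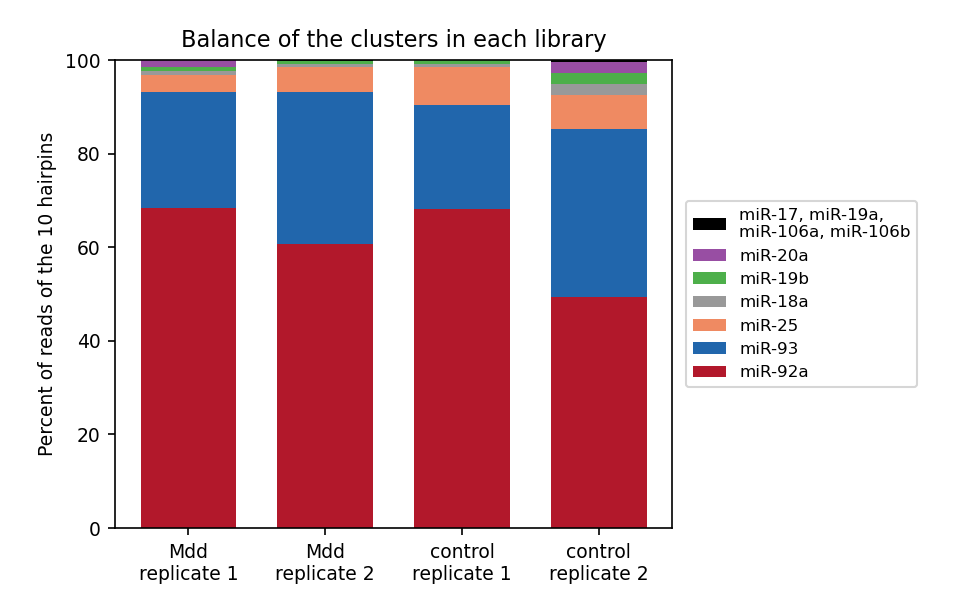
Share of member reads taken by each hairpin name (stacked bars, percent) in the 2 Mdd and the 2 control libraries, 1 bar per library. miR-92a, miR-93 and miR-25 fill 92.5% to 98.5% of every bar, and the miR-92a share is lowest, at 49.4%, in control replicate 2.

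Nearly every read kept the mature 5′ end and so the seed. Reads starting at base 1 made up 99.2% and 99.3% of member reads in the Mdd libraries, against 99.0% and 99.8% in the control libraries. Arms were as one-sided: 99.9% of miR-92a reads came from the 3p arm, 99.4% of miR-25 reads from the 3p arm and all miR-93, miR-20a and miR-19b reads from the arm printed above. miR-18a was 5p in 90.9% of 329 reads, but in control replicate 1 the 3p arm gave 18 of 28. The 17 reads of miR-106b leaned the other way, with 13 from the 3p arm, and miR-17 gave 19 of 28 reads from its 5p arm. With reads outside the miRNA label counted, the miR-17 preference turned, with 29 of 48 reads from the 3p arm, since a tailed 3p form had 20 reads in control replicate 2.

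The 3′ ends differed between members and were shifted from the RefSeq end in most of them. The most read sequences are given as sequenced, with the seed in capitals, because they show which forms of each member were read most. The last one, from the X-linked copy of miR-92a, had few reads and is given because it separates the copies.

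miR-92a-3p, 22 nt: tATTGCACttgtcccggcctgt
miR-92a-3p, 23 nt: tATTGCACttgtcccggcctgtt
miR-93-5p, 21 nt: cAAAGTGCtgttcgtgcaggt
miR-93-5p, 24 nt: cAAAGTGCtgttcgtgcaggtagt
miR-25-3p, 22 nt: cATTGCACttgtctcggtctga
miR-25-3p, 20 nt: cATTGCACttgtctcggtct
miR-18a-5p, 24 nt: tAAGGTGCatctagtgcagatagt
miR-20a-5p, 24 nt: tAAAGTGCttatagtgcaggtagt
miR-19b-3p, 23 nt: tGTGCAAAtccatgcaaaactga
miR-19b-3p, 22 nt: tGTGCAAAtccatgcaaaactg
miR-92a-3p of the X-linked copy, 22 nt: tATTGCACttgtcccggcctga

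miR-92a-3p ended 1 base past the RefSeq end in 87.9% and 80.2% of its reads in Mdd replicates 1 and 2, against 89.6% and 87.1% in control replicates 1 and 2. That end was dominant in all 4 libraries. The base added there also separates the hairpin copies: T is encoded on chromosome 14 and A on X. Sequences labelled for the chromosome 14 copy alone made up 95.9% and 93.4% of miR-92a reads in the Mdd libraries, against 96.4% and 94.5% in the control libraries. The X-linked form had 35 and 0 labelled reads in the Mdd libraries, against 1 and 1 in the control libraries. Outside the miRNA label, this form plus T had 21 reads, all in Mdd replicate 2. The form plus A had 14 reads, all in control replicate 2. A base added after cutting would look the same as an encoded one at this position, and this was not tested. All reads of miR-19b but 1 fitted both of its copies.

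miR-93-5p was mostly 2 bases shorter than the RefSeq strand. This 21 nt form made up 85.2% and 70.6% of its reads in Mdd replicates 1 and 2, against 76.8% and 65.9% in control replicates 1 and 2, so the groups overlapped. The 20 nt form rested mainly on the second replicates, with 0.548% and 14.7% in the Mdd libraries, against 2.85% and 7.10% in the control libraries. The 24 nt form, 1 base past the RefSeq end, had 6.16% and 5.94% in the Mdd libraries, against 12.97% and 16.4% in the control libraries. Both Mdd values of this form lay below both control values, a difference that was not tested.

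miR-25-3p ended where RefSeq places it in 94.8% and 74.9% of its reads in Mdd replicates 1 and 2, against 73.0% and 49.4% in control replicates 1 and 2. Mdd replicate 1 stood highest and control replicate 2 lowest. This order holds for labelled reads only. Over all miR-25 reads found by sequence, tailed ones included as described below, that end made up 36.0% and 58.0% in the Mdd libraries, against 53.9% and 34.3% in the control libraries. Its 20 nt form took 3.55% and 19.3% in the Mdd libraries, against 8.27% and 24.3% in the control libraries. The 24 nt forms printed for miR-18a and miR-20a were their most read sequences, and each was 1 base longer than the RefSeq strand. In control replicate 1 neither had a read of that form. miR-19b-3p ended at 23 nt in 93.7% and 24.5% of its reads in the Mdd libraries, against 24.0% and 29.4% in the control libraries.

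**Figure D4:**
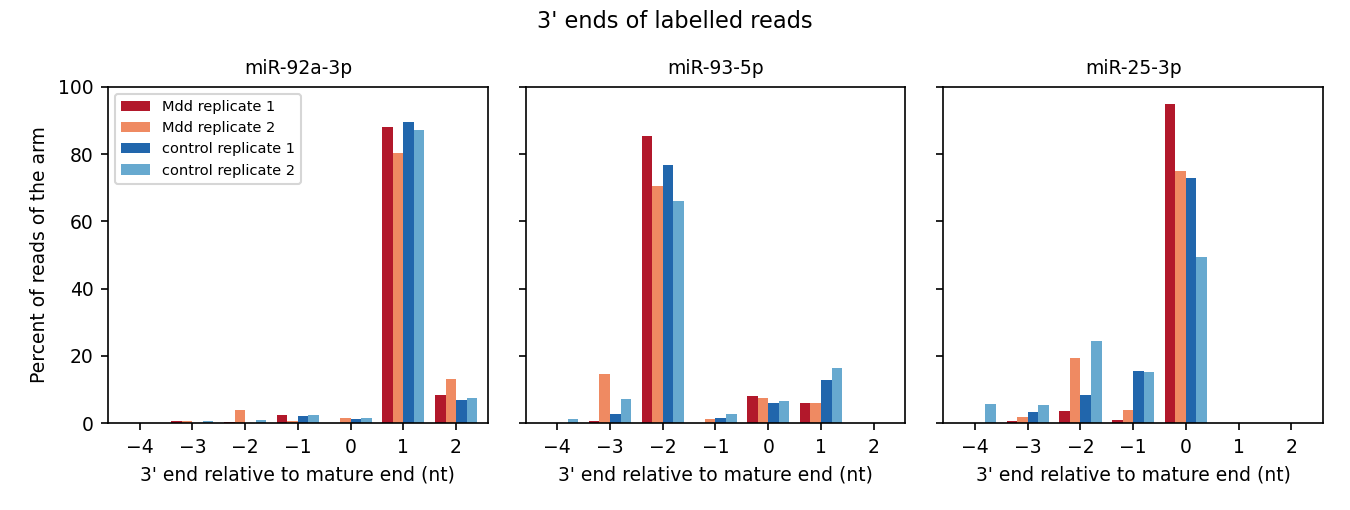
Share of the labelled reads of miR-92a-3p, miR-93-5p and miR-25-3p (vertical axis, percent) by the position of the 3′ end relative to the RefSeq mature end (horizontal axis, nt), with 1 bar per library. The leading end is the same in all 4 libraries for each arm: 1 base longer for miR-92a-3p, 2 bases shorter for miR-93-5p and the RefSeq end for miR-25-3p.

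Every member read with the miRNA label matched the genome, and members were also present outside that label. Reads holding bases 2 to 17 of a RefSeq mature strand were counted whatever their label. This found 2766 member reads without a miRNA label, of which 2514 were labelled piRNA, 252 had no annotation and 0 were marked as matching the genome. Of these reads, 2271 carried a 3′ tail of A and T that the hairpin does not encode, and 392 a tail holding G or C. A substitution near the 3′ end counted as a tail too, as in 13 miR-92a reads with the tail TCTGT. The reads without a miRNA label made up 10.3% and 7.82% of all member reads in Mdd replicates 1 and 2. In control replicates 1 and 2 they made up 9.53% and 9.14%, a narrow range with overlapping groups.

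miR-25 was counted as tailed far more often than miR-92a or miR-93. Its share of reads with a tail of A and T was 61.9% and 22.2% in Mdd replicates 1 and 2, against 25.5% and 29.1% in control replicates 1 and 2. For miR-92a the shares were 5.85% and 2.27% in Mdd, against 7.64% and 7.30% in control. For miR-93 they were 0.091% and 1.62% in Mdd, against 2.27% and 2.66% in control. All other miRNAs as 1 group had 12.4% and 9.98% in Mdd, against 11.1% and 10.7% in control. Among miRNAs with at least 200 reads, miR-25 ranked 5 of 84 and 10 of 69 in the Mdd libraries, against 9 of 56 and 17 of 105 in the control libraries. Mdd replicate 2 was lowest for miR-92a and Mdd replicate 1 for miR-93, and for miR-25 the Mdd values lay on either side of the control values. An added base that the hairpin also encodes was not counted, so these shares are not like for like. The T that ends the 23 nt miR-92a and 24 nt miR-93 forms is encoded, but a T after miR-25-3p is not. That miR-92a form took 8.51% and 13.2% of labelled miR-92a reads in Mdd, against 6.78% and 7.42% in control.

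Examples of tailed forms, chosen after their values were seen, are given with the tail in capitals. They show the kinds of sequence that do not count towards the labelled levels above.

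miR-25-3p with T in place of the last base: cattgcacttgtctcggtctgT
miR-25-3p plus T: cattgcacttgtctcggtctgaT
miR-25-3p plus AA: cattgcacttgtctcggtctgaAA
miR-92a-3p plus A: tattgcacttgtcccggcctgtA
miR-92a-3p plus AT: tattgcacttgtcccggcctgtAT
miR-93-5p with T in place of the last base: caaagtgctgttcgtgcaggtaT
miR-20a-5p plus TT: taaagtgcttatagtgcaggtagtTT

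The first of these had 161 and 21 reads in Mdd replicates 1 and 2, against 35 and 67 reads in control replicates 1 and 2. The second had 131 and 47 reads in the Mdd libraries, against 28 and 58 reads in the control libraries. miR-92a-3p plus A had 69 and 18 reads in the Mdd libraries, against 63 and 78 reads in the control libraries. The miR-20a form with TT had 14 reads, all in control replicate 1, the library with no labelled miR-20a read.

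Counting the tailed reads moved the balance inside the miR-106b-25 cluster. By label, miR-93 held 87.6% and 85.4% of the cluster's reads in Mdd replicates 1 and 2, against 73.4% and 83.3% in control replicates 1 and 2. The groups did not overlap, at the smallest p the design allows (exact two-sided permutation test, p = 0.33). Named by sequence, the shares were 72.9% and 82.7% in the Mdd libraries, against 67.7% and 78.4% in the control libraries, and the groups overlapped. The ratio of miR-93 to miR-25 reads in Mdd replicate 1 was 7.07 by label and 2.69 by sequence.

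**Figure D5:**
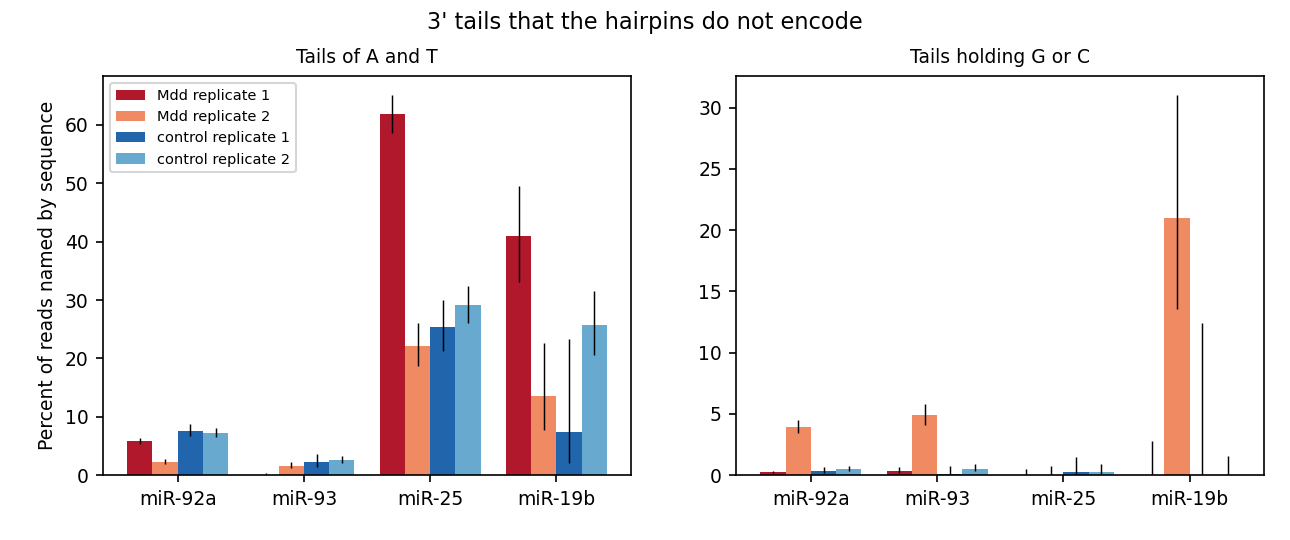
Share of reads named by sequence (vertical axes, percent) that carry a 3′ tail of A and T (left) or a tail holding G or C (right) for miR-92a, miR-93, miR-25 and miR-19b, with 1 bar per library. Lines are Wilson 95% intervals with reads as the unit and cover counting error only. miR-25 exceeds 20% in all 4 libraries on the left, and Mdd replicate 2 is the highest bar for miR-92a, miR-93 and miR-19b on the right.

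Other mouse miRNAs that carry one of these seeds outside the listed names added few reads. miR-92b-3p, found by its seed and added later, had 182 and 29 reads in Mdd replicates 1 and 2, against 18 and 80 reads in control replicates 1 and 2. miR-32-5p had 0 and 24 reads in the Mdd libraries, against 0 and 32 in the control libraries. miR-18b-5p had 12 reads, all in control replicate 2, and miR-20b, miR-363, miR-367 and miR-6383 had 0. Like miR-106a, miR-18b, miR-20b and miR-363 belong to the X-linked cluster. Reads that the sequence of this cluster sets apart were few. Among them were those of miR-18b, miR-92a and miR-19b named above, tailed miR-92a forms included.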

How the data were processed

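The deposited files give, per the file headers, 1 line per distinct read sequence of 15 to 45 nt with its length, raw read count, genome match and annotation. Per the submitters' processing notes, the mm9 build and DESeq2 were used, the aligner being not given in the sources used here. The files hold no coordinates, so positions are those of GRCm38.p6.

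Files were joined by sequence, a sequence unannotated in 1 file kept the annotation another file gave it, and counts of reads of at least 18 nt were summed per hairpin name without copy numbers. The tests used edgeR 4.0.16 on these counts (quasi-likelihood, TMM, filterByExpr, two-sided, Benjamini-Hochberg, threshold 0.05) in R 4.3.3, with DESeq2 1.42.0 as an alternative. The SE of a log2 fold change was derived from the edgeR test, as its absolute value over the square root of the F statistic. Shares were compared by exact permutation tests with Python 3.11.15 and scipy 1.17.1. CPM takes all miRNA reads of at least 18 nt as the total. The floor is 3 counts per library. Intervals and floors cover counting error only. The usual copy number is the most frequent number of copies per genome-matched sequence above the minimum of its distribution.

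Reads were placed on the RefSeq hairpins, and an arm took reads starting within 5 bases of its mature start. Tails are up to 5 bases past the last base that fits the hairpin. All 10 members are named, sequences are printed for the most read of them, and outside them the miRNAs of the same seed and the 3 most similar profiles. Members, marker lists, tests and alternatives were chosen with earlier results of these data known. Alternatives were other scalings, filters, lengths and annotations, the replicate block and each library left out. Naming reads by sequence and dividing counts by the usual copy number were added after seeing the data.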

Additional observations from a re-analysis of the deposited data

Results flagged for a closer look

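The miR-25 reads of Mdd replicate 1 carried tails of A and T in 61.9% of cases, above the 22.2% of Mdd replicate 2 and the 25.5% and 29.1% of control replicates 1 and 2. With counts divided by the usual copy number, the Wilson 95% intervals were 38.7% to 76.7% and 13.96% to 34.4% in Mdd replicates 1 and 2, against 16.1% to 38.9% and 19.99% to 39.5% in control replicates 1 and 2. The interval of Mdd replicate 1 therefore met those of both control libraries once copies were allowed for. miR-19b also stood highest in Mdd replicate 1 for such tails, at 41.0% and 13.6% in Mdd replicates 1 and 2, against 7.41% and 25.7% in control replicates 1 and 2, on 134, 81, 27 and 245 reads in that order. All 55 tailed miR-19b reads of Mdd replicate 1 were 1 sequence.

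Tails holding G or C were higher in Mdd replicate 2 than in both control libraries for 3 members. They made up 0.232% and 3.93% of miR-92a reads in Mdd replicates 1 and 2, against 0.347% and 0.494% in control replicates 1 and 2. For miR-93 the shares were 0.318% and 4.90% in Mdd, against 0.126% and 0.546% in control. For miR-19b they were 0% and 21.0% in Mdd, against 0% and 0% in control. Wilson intervals were also taken with counts divided by the usual copy number. For miR-92a that of Mdd replicate 2, 2.553% to 5.755%, lay above both control intervals. For miR-93, at 2.964% to 7.854%, it met that of control replicate 1, 0% to 3.288%. For miR-19b, at 5.668% to 50.98%, it met those of both control libraries, 0% to 48.99% and 0% to 13.8%. In Mdd replicate 2, 104 of the 180 such miR-92a reads and 14 of the 17 such miR-19b reads were 1 sequence each. Over all other miRNAs such tails were also highest in Mdd replicate 2, at 3.56% and 6.18% in Mdd, against 3.76% and 5.06% in control. The part of that library in these values was not tested. All these signals lie in reads that the miRNA label leaves out.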

How the results depend on the processing

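The number of members called was 0 under every alternative run. The number of labels called, 0 as reported, was 5 with the library size of all reads of 18 nt or longer, 5 with DESeq2, 6 without a filter, 6 with a mean CPM of at least 10, 1 with robust dispersion, 1 with all lengths from 15 nt and 4 with counts divided by usual copies. With 1 library left out it ranged from 0 to 16: 5 without Mdd replicate 1, 16 without Mdd replicate 2, 7 without control replicate 1 and 0 without control replicate 2. The remaining library of a group was then assumed to vary like those of the other group. The replicate numbers are shared by the groups but nothing says that they pair samples, and the deviations of same-numbered libraries correlated at -0.034 over 233 labels. With the replicate block, 4 labels were called and the log2 fold change was 0.86 for miR-20a and 2.2e-05 for miR-19b.

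The member share of miRNA reads, 2.09 percentage points higher in Mdd, was -0.0079 points over all reads of 18 nt or longer and 0.199 with distinct sequences in place of reads, and ranged from 0.519 to 3.67 with each library left out. The miR-106b-25 share, at -3.53 points, was 1.62 with distinct sequences in place of reads and ranged from -9.99 to 2.94 with a library left out. The miR-92a share, at 5.73 points, was -0.279 with distinct sequences and ranged from -3.68 to 15.1. With copy numbers dropped, no label joined hairpin names of different clusters, so leaving such labels out gave no value. Reads that fitted both copies of miR-19b or of miR-92a, which lie in different clusters, were not left out.

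Scaling to all reads turned miR-92a (-0.13) and miR-93 (-0.39). With RLE scaling, with DESeq2, without a filter, at a mean CPM of 10 or more and from 15 nt, miR-20a was 0.22, 0.24, 0.12, 0.13 and 0.17 and miR-19b was 0.057, 0.053, 0.030, 0.031 and 0.11. miR-25 was 0.015, 0.014 and 0.085 with the last 3 of these, 0.31 by sequence and 0.053 with counts divided, and miR-19b was 0.35 by sequence. With each library left out, miR-18a ranged from -0.96 to 0.15, miR-20a from -3.68 to 8.46, miR-19b from -0.62 to 0.59 and miR-25 from -0.74 to 0.44. Adjusted p-values of the 6 members spanned 0.694 to 0.9999 over the alternatives. The causes were not tested. Few libraries, reads that may be copies and low counts limit all values, and counts divided by usual copies left 3 members testable.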
